A study of Mus musculus with 10 samples.

Results

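The surfactant proteins and lamellar body genes were followed through 10 genes, Sftpa1, Sftpb, Sftpc, Sftpd, Abca3, Lamp3, Lpcat1, Napsa, Slc34a2 and Ctsh. They were chosen by name, as the gene rows whose symbol is on this list, and all 10 were present among the 54532 genes of the expression table. All 10 also had a mean of at least 0.5 FPKM (fragments scaled to the length of the gene and to the size of the library), the level that 15388 genes reached and that was required for testing.

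The lungs came from wild-type (WT) mice, the study's methods naming C57/BL6 pups, that were operated on at postnatal day 7 (P7) and examined at P14. In the increased pulmonary blood flow (IncPBF) group, a fistula was made by puncturing from the abdominal aorta into the inferior vena cava, so that arterial blood returned to the right heart and the lung. In the sham group, the abdomen was opened and the vessels were exposed in the same way without the puncture. Bulk RNA of the lung was sequenced from 5 IncPBF and 5 sham lungs, which are numbered below as in the columns of the table, and the question was which lung genes differed in level between shunted and sham-operated pups. The methods say that pups of either sex were used, and the labels give no litter, sex or processing day for any lung.

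Pulmonary surfactant is the film of phospholipid and protein that lowers surface tension in the alveoli. Alveolar type 2 (AT2) cells make it, store it in lamellar bodies, which are lysosome-related organelles filled with stacked lipid, and secrete it into the airspace. Sftpb and Sftpc encode the small hydrophobic proteins that work within the lipid film, while Sftpa1 and Sftpd encode collectins, secreted lectins that bind microbes and lipid. The other members process these proteins, make or load the lipid, or sit in the membranes of lamellar bodies or of the AT2 cell surface.

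The promoters of 3 members are shown because these genes stand at the ends of the pattern described below, Sftpa1 and Sftpb being lower in every IncPBF lung than in any sham lung and Lpcat1 not being lower. Each line gives the 250 bases before the start of transcription in the RefSeq annotation of GRCm38.p6, 5′ to 3′ on the strand of the gene. Capitals mark CTCAAG, the core of a motif bound by Nkx2-1, the homeobox factor of lung epithelium.
Sftpa1 promoter (chr14:41131538-41131787, + strand): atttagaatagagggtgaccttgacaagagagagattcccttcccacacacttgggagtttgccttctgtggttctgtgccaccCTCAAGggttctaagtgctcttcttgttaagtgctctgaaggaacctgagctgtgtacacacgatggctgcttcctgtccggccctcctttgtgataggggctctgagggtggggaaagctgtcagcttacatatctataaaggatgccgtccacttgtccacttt
Sftpb promoter (chr6:72304360-72304609, + strand): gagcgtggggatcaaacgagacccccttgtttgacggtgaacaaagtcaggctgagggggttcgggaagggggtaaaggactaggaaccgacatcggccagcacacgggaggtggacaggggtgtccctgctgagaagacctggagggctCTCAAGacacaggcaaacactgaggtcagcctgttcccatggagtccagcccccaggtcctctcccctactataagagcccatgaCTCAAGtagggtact
Lpcat1 promoter (chr13:73466981-73467230, + strand): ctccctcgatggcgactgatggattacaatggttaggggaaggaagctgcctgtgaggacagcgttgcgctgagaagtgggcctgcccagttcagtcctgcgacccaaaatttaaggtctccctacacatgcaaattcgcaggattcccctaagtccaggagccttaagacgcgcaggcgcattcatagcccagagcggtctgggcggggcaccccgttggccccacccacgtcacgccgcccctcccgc

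The Sftpa1 promoter held the core once, beginning 166 bases before the start, and the Sftpb promoter held it at 100 and at 15 bases before the start. RefSeq promoters were found for 6 of the 10 members (Sftpa1, Sftpb, Abca3, Lamp3, Lpcat1 and Slc34a2), and CTCAAG was searched on both strands in a window of 300 bases that also took in the 50 bases after the start. It was present in 2 of the 6, against 15.9% of 32851 promoters in all. Abca3 and Slc34a2, which were also downregulated in IncPBF lungs, did not hold it. For Ctsh, lower in every IncPBF lung than in any sham lung, no promoter was found. A relation of the motif to the fold changes was not tested. TGTTTNC, a core bound by forkhead factors such as Foxa1 and Foxa2, was present in 2 of the 6 (Sftpb and Lamp3), against 20.5% of all promoters. The 2 motifs share no bases in these windows, and these matches describe the letters only.

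Fragments on genes numbered 16103423 to 20318525 in an IncPBF lung and 18171494 to 19400575 in a sham lung. Behind the members, this depth gave between 2589 fragments (Napsa) and 278164 fragments (Sftpc) in a single lung, so that counting error was small beside the spread between lungs. Sex-linked genes followed the groups almost completely, and 1 sham lung stood apart in its airway genes. Xist, transcribed from the inactive X chromosome, was at 52.4 to 66.5 FPKM in IncPBF lungs 2 to 5 and at most 0.0770 FPKM in IncPBF lung 1 and all 5 sham lungs. Ddx3y, a gene of the Y chromosome, was at 18.6 FPKM in IncPBF lung 1 and 21.8 to 24.6 FPKM in sham lungs, whereas the other IncPBF lungs had at most 0.00926 FPKM. Sex, as these genes mark it, was thus confounded with surgery apart from IncPBF lung 1, and their parts in any difference below can hardly be told apart. In sham lung 5, the airway genes Scgb1a1 and Foxj1 were at 128 and 0.285 FPKM, while the remaining lungs had at least 4802 FPKM of Scgb1a1 and 6.56 FPKM of Foxj1. Fewer AT2 cells and less of a transcript per AT2 cell cannot be told apart in bulk lung RNA.

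Of the 10 members, 6 were downregulated in IncPBF relative to sham lungs and none was upregulated at an adjusted p under 0.05 (limma on log2(FPKM + 0.1), Benjamini-Hochberg over all 15388 genes). No member was higher at an unadjusted p under 0.05, either in this fit or in limma-voom on whole fragments, which kept the authors' library sizes. The downregulated members were Sftpa1, Sftpb, Abca3, Napsa, Slc34a2 and Ctsh, and the remaining members were Sftpc, Sftpd, Lamp3 and Lpcat1. Among all genes tested, 16.2% were called lower, 16.1% higher and 32.3% in either direction. The median log2 fold change of the 10 members was -0.46, beside 0.014 over all genes tested. When log2 Xist entered the fit as a covariate, 1 of the 10, Ctsh, was still called, as described further on. For 3 of the 10 (Sftpa1, Sftpb and Ctsh), every IncPBF lung was below every sham lung, which was so for 11.2% of all genes. Fold changes are given as IncPBF minus sham on the log2(FPKM + 0.1) scale throughout.

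**Figure D1:**
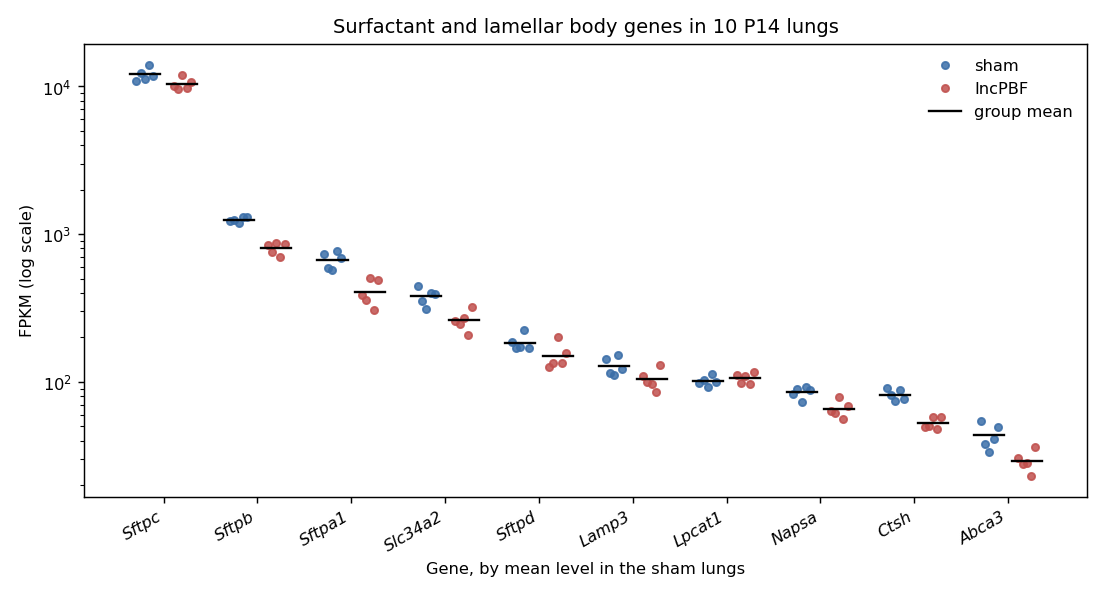
FPKM of each of the 10 members in every lung (points, logarithmic axis), with the group mean as a line, for 5 IncPBF and 5 sham lungs. The groups do not overlap for Sftpa1, Sftpb and Ctsh, and they are intermingled for Lpcat1.

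The collectin Sftpa1 was lower in all IncPBF lungs, and Sftpd did not pass the test. Sftpa1 (chromosome 14, 41131782 to 41136452, + strand, GRCm38) was at 384, 360.1, 502, 305 and 492 FPKM in IncPBF lungs 1 to 5 and at 739, 590.3, 569, 766 and 690.0 FPKM in sham lungs 1 to 5. The lowest sham lung was thus above the highest IncPBF lung. The group means were 409 ± 85.6 FPKM (SD, n = 5) and 671 ± 87.9 FPKM (SD, n = 5), and the log2 fold change was -0.73 with an SE of 0.15 (limma adjusted p = 0.00340). In this fit, no other member changed by more.

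Sftpd (chromosome 14, 41172214 to 41185149, - strand) lies near Sftpa1 in the genome but on the other strand. It was at 126, 135, 199.7, 133 and 157 FPKM in the IncPBF lungs and at 187, 169, 173, 225 and 168 FPKM in the sham lungs. In 4 of the 5 IncPBF lungs the level was below that of every sham lung, and IncPBF lung 3 was above 4 of the 5 sham lungs. The log2 fold change was -0.31 with an SE of 0.13 and did not pass the threshold (limma adjusted p = 0.0891). Without IncPBF lung 3, it was -0.42 with an adjusted p of 0.0133 in the same limma model.

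Of the hydrophobic proteins, Sftpb, without which lamellar bodies do not form properly, showed the least spread among the members in the sham lungs. Sftpb (chromosome 6, 72304610 to 72314371, + strand) was at 839, 755, 870.5, 704 and 851 FPKM in the IncPBF lungs and at 1222, 1241, 1188, 1302 and 1297 FPKM in the sham lungs. All sham lungs lay above all IncPBF lungs, with a gap between the groups that was wider than the range within either. The coefficient of variation was 8.85% among IncPBF lungs and 3.92% among sham lungs, and the log2 fold change was -0.64 with an SE of 0.08 (limma adjusted p = 0.000284).

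Sftpc, the transcript most restricted to AT2 cells, had the highest mean FPKM of all genes in the table and ranked first or second in each of the 10 lungs. Sftpc (chromosome 14, 70520949 to 70524081, - strand) was at 10047, 9583, 11925, 9809 and 10776 FPKM in the IncPBF lungs and at 10934, 12433, 11320.0, 14074 and 11716 FPKM in the sham lungs. Here 4 of the 5 IncPBF lungs were below all sham lungs, and IncPBF lung 3 lay within the sham range. The mean was 13.8% lower in the IncPBF group, with a log2 fold change of -0.21, an SE of 0.17 and a 95% interval of -0.58 to 0.15 (limma adjusted p = 0.358). An exact permutation test on this single gene gave a two-sided p of 0.0476, and the limma fit without a trend in the variance gave an adjusted p of 0.0872. The SE and interval also draw on the variance that limma shares over genes, so they do not give the spread of Sftpc alone. The unadjusted limma p was 0.226 with the trend, 0.0332 without it and 0.800 without a filter on low values. In limma-voom, the unadjusted p was 0.0338.

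**Figure D2:**
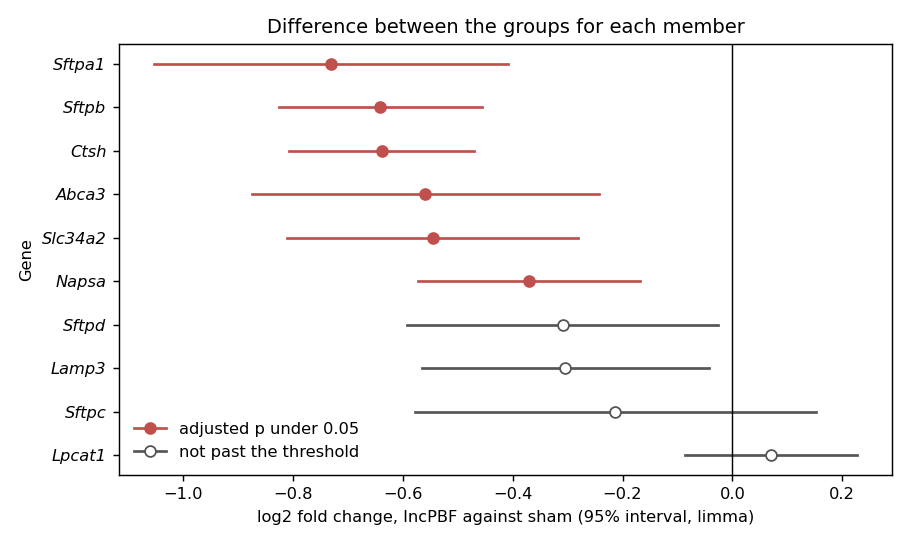
Log2 fold change (IncPBF minus sham, log2(FPKM + 0.1) scale, limma) of each of the 10 members with its 95% interval, and filled points for an adjusted p under 0.05. The 6 filled points lie below 0, from -0.37 for Napsa to -0.73 for Sftpa1, and Lpcat1 lies at 0.07.

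Both members that encode proteases acting on the hydrophobic proproteins were downregulated. Ctsh, which encodes cathepsin H, was at 49.3, 50.5, 57.6, 48.2 and 57.8 FPKM in the IncPBF lungs and at 90.5, 81.6, 73.7, 87.9 and 76.5 FPKM in the sham lungs, with no overlap. Its log2 fold change of -0.64 (SE 0.08) had the smallest adjusted p of the 10 members (limma adjusted p = 0.000159). Napsa, which encodes napsin A, was at 63.9, 61.9, 79.4, 56.4 and 68.2 FPKM in the IncPBF lungs and at 83.3, 89.1, 73.2, 91.6 and 87.8 FPKM in the sham lungs. These ranges overlapped only through IncPBF lung 3, which was above sham lung 3, and the log2 fold change was -0.37 with an SE of 0.09 (limma adjusted p = 0.0107).

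Of the genes that act on surfactant lipid, Abca3 was downregulated and Lpcat1 did not pass the test. Abca3, the transporter that loads phospholipid into lamellar bodies, was at 30.5, 28.0, 28.3, 23.0 and 36.4 FPKM in the IncPBF lungs and at 54.5, 38.2, 33.6, 40.8 and 49.6 FPKM in the sham lungs. IncPBF lung 5 was above sham lung 3, the other IncPBF lungs were below every sham lung, and the log2 fold change was -0.56 with an SE of 0.14 (limma adjusted p = 0.0127). Lpcat1, the acyltransferase that remodels phosphatidylcholine to its saturated surfactant form, was at 111, 98.0, 109, 97.2 and 117 FPKM in the IncPBF lungs and at 99.0, 103, 92.3, 113 and 99.4 FPKM in the sham lungs. The groups were intermingled, and the log2 fold change of 0.07 (SE 0.07) had a 95% interval of -0.09 to 0.23 (limma adjusted p = 0.483). It was the only member whose mean was higher in the IncPBF group.

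Of the membrane genes, Slc34a2 was downregulated and Lamp3 did not pass the test, and the difference between their fold changes was not tested. Slc34a2, the sodium-phosphate cotransporter of the AT2 cell surface, was at 259, 248, 270.0, 209 and 321 FPKM in the IncPBF lungs and at 445, 353, 314, 397 and 394 FPKM in the sham lungs. Only IncPBF lung 5 and sham lung 3 overlapped, and the log2 fold change was -0.55 with an SE of 0.12 and a 95% interval of -0.81 to -0.28 (limma adjusted p = 0.00572). Lamp3, a membrane glycoprotein of lamellar bodies, was at 109.7, 99.9, 96.1, 85.9 and 130.2 FPKM in the IncPBF lungs and at 142, 116, 110.5, 151 and 123 FPKM in the sham lungs. IncPBF lung 5 was above 3 of the 5 sham lungs, and the log2 fold change of -0.30 (SE 0.12, 95% interval -0.56 to -0.04) did not pass the threshold (limma adjusted p = 0.0718). Leaving out IncPBF lung 5 or sham lung 3 brought Lamp3 past it, with adjusted p-values of 0.0217 and 0.0452 in limma, as did limma-voom on whole fragments (adjusted p = 0.0495).

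The order of the members by mean FPKM, which is per gene length, was almost the same in both groups. It ran Sftpc, Sftpb, Sftpa1, Slc34a2, Sftpd, Lpcat1, Lamp3, Napsa, Ctsh and Abca3 after IncPBF surgery, and only Lamp3 and Lpcat1 changed places after sham surgery. The ranges of neighbours in this order overlapped for Lpcat1 and Lamp3 and for Napsa and Ctsh in both groups, and for Sftpa1 and Slc34a2 in the IncPBF group. Within lungs, Napsa was above Ctsh in 5 of 5 IncPBF lungs and in 3 of 5 sham lungs.

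Of all fragments on genes, the 10 members took 1.61 to 1.97% per IncPBF lung and 1.99 to 2.43% per sham lung, shares that do not depend on how FPKM was scaled. Sftpc alone made up most of this, with means of 1.13% ± 0.0962 (SD, n = 5) and 1.24% ± 0.144 (SD, n = 5). The other 9 members took means of 0.622% and 0.854% of the fragments in the IncPBF and sham lungs, a ratio of 0.728. In FPKM, which carries the authors' scaling, they summed to 1983 ± 244 FPKM (SD, n = 5) after IncPBF surgery. Against 2926 ± 221 FPKM (SD, n = 5) after sham surgery, this was a ratio of 0.678.

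Because a ratio of a pair of genes within a lung is free of that lung's scaling, each member was also set against Sftpc, giving 9 ratios of FPKM. An exact permutation test over every assignment of the lungs to groups was used, two-sided, for which the smallest possible p is 0.00794. The ratio of Sftpb to Sftpc was 8.35, 7.88, 7.30, 7.18 and 7.90% in the IncPBF lungs and 11.2, 9.98, 10.5, 9.25 and 11.1% in the sham lungs, a log2 difference of -0.43 (exact permutation p = 0.00794). The ratio of Sftpa1 to Sftpc had means of 3.89% and 5.57%, and that of Ctsh to Sftpc had means of 0.506% and 0.682%. Their log2 differences were -0.52 and -0.43, each with the same smallest exact permutation p. Relative to Sftpc, these genes were thus lower in every IncPBF lung than in any sham lung.

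The ratio of Lpcat1 to Sftpc was 1.10, 1.02, 0.915, 0.991 and 1.09% in the IncPBF lungs and 0.905, 0.832, 0.815, 0.802 and 0.848% in the sham lungs, without overlap (log2 difference 0.28, exact permutation p = 0.00794). Since Sftpc was itself somewhat lower in the IncPBF lungs, the median log2 difference of the ratio to Sftpc was 0.23 over the 14991 other tested genes that were above 0 in every lung, so the value of Lpcat1 was near that of a typical gene. The ratios of Slc34a2 and Napsa to Sftpc differed by -0.33 and -0.16 on the log2 scale (exact permutation p = 0.0317 and 0.0476). For Abca3, Sftpd and Lamp3, the differences of -0.35, -0.10 and -0.09 had exact permutation p-values of 0.119, 0.302 and 0.524. Thus 3 of the 9 ratios were lower and 1 was higher without overlap, against 2.09% and 19.6% of those 14991 genes. At an unadjusted exact p under 0.05, 5 ratios were lower and 1 was higher, against 4.78% and 37.9% of those genes. Groups that do not overlap stay apart when a lung is left out. The 4 ratios without overlap therefore had to keep a small exact permutation p (at most 0.0159), which adds no support. Napsa lost its p under 0.05 in 7 and Slc34a2 in 6 of the 10 omissions.

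**Figure D3:**
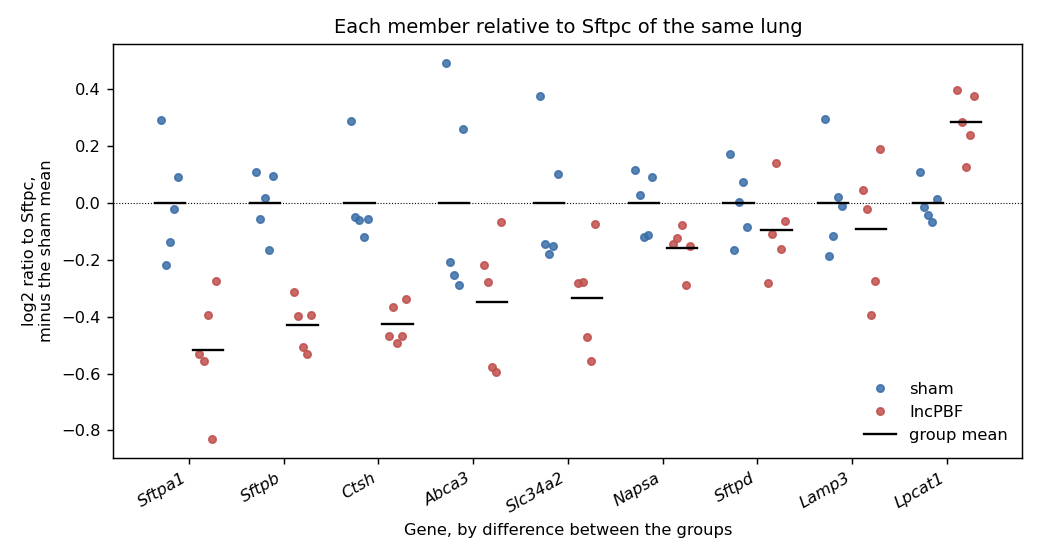
Log2 ratio of the FPKM of each of 9 members to that of Sftpc in the same lung, minus the mean of the sham lungs, for 5 IncPBF and 5 sham lungs (points) with group means as lines. The groups separate downwards in the IncPBF lungs for Sftpa1, Sftpb and Ctsh and upwards for Lpcat1.

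Within groups, the members moved together from lung to lung. Over the 45 pairs of members, the correlation of their deviations from the group means across the 10 lungs had a median r of 0.704 and was above 0 in 44 pairs, the highest being 0.93 for Abca3 and Slc34a2 and the lowest -0.03 for Sftpc and Abca3. These values describe lungs that each come from 1 library, in which every gene shares the depth and the cell makeup. No such median for other sets of genes is given here, so the values are not shown to be particular to the members. IncPBF lung 4 was the lowest of its group for 8 of the 10 members, and sham lung 3 was the lowest of its group for 8 of the 10. The club cell gene Scgb1a1 was highest in the same lungs, at 10003 FPKM in IncPBF lung 4 and 11743 FPKM in sham lung 3, and the part of this in the members' levels was not tested. Sham lung 5, which was low in airway genes, was the lowest of its group for 1 member, and without it 6 members were still called.

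**Figure D4:**
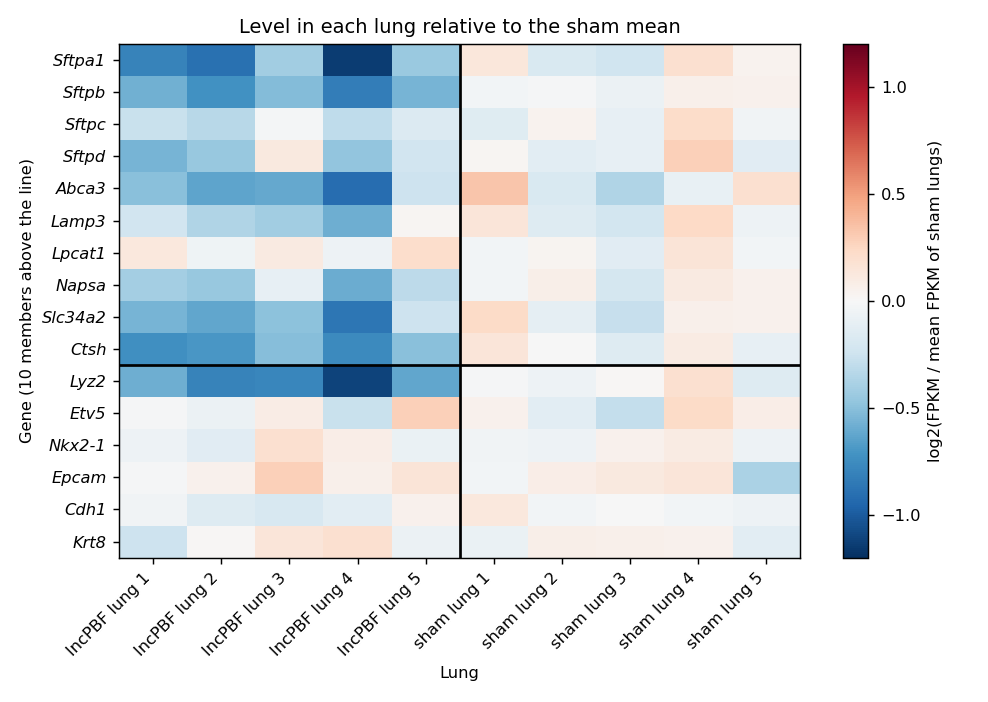
Log2 of the FPKM in each lung over the mean FPKM of the sham lungs (blue lower, red higher), for the 10 members above the line and 6 other genes below it, in 5 IncPBF and 5 sham lungs. IncPBF lung 4 and sham lung 3 are each the lowest of their group for 8 members, and Nkx2-1 and the epithelial genes Epcam, Cdh1 and Krt8 show no such block of lower values.

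IncPBF lung 1 was the only IncPBF lung with the Xist level of the sham lungs. It was below all sham lungs for 9 of the 10 members, Lpcat1 being the exception, and within the range of the other IncPBF lungs for 9 of the 10, Sftpd being the exception. The share of all genes placed in this way is not given here. Since the members moved together, these are not 9 separate observations of that lung. With log2 Xist as a covariate in the limma fit, 1 of the 10 members was called, Ctsh, at a log2 fold change of -0.72 (adjusted p = 0.0184), and 4.82% of all genes were called. The fold change of Sftpb was then -0.57 (limma adjusted p = 0.0614) and that of Sftpa1 -0.78 (limma adjusted p = 0.125). Sftpd moved from -0.31 to -0.55 (limma adjusted p = 0.177), Abca3 from -0.56 to -0.45 (adjusted p = 0.355), Lamp3 from -0.30 to -0.20 (adjusted p = 0.631) and Lpcat1 from 0.07 to 0.14 (adjusted p = 0.578). Sftpc was at -0.26, Napsa at -0.40 and Slc34a2 at -0.52 in this fit (limma adjusted p = 0.675, 0.209 and 0.205). The SE of Sftpb rose from 0.08 to 0.15 and that of Sftpa1 from 0.15 to 0.26. As only 1 of 5 IncPBF lungs shared the Xist level of the sham lungs, group and Xist level can be told apart through that lung alone.

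The genes with the most similar deviations over the 10 lungs were ranked among all genes tested. For Abca3, these were Itsn1, Gpam and Nceh1, with r of 0.98, 0.98 and 0.97, and for Slc34a2 they were Ros1, Fgfr2 and Itsn1, with r of 0.96, 0.96 and 0.95. For Sftpa1, they were Egfl6, Ros1 and Gramd1b (r = 0.96, 0.94 and 0.94), and for Sftpc they were Hebp1, Prnp and Mcam (r = 0.95, 0.95 and 0.94). For Napsa, they were Cd74, Cd200r1 and Lgals3 (r = 0.96, 0.96 and 0.94), and for Sftpd they were Slc26a4, Chil1 and Recql5 (r = 0.95, 0.93 and 0.90). Lamp3 was followed by Dram1, Eps8 and Hsd17b11 (r = 0.95, 0.95 and 0.94), and Sftpb by H2-DMb1, Zbtb24 and Gm45151 (r = 0.94, 0.93 and 0.93). Ctsh was followed by Srsf4, Mir7010 and Steap2 (r = 0.99, 0.95 and 0.93), and Lpcat1 by Vipas39, Zfp128 and Tll1 (r = 0.92, 0.89 and 0.89). With 10 lungs and 15388 genes to choose from, the highest values were selected from many, and they are descriptions without a test.

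Around the members, lists of genes from the same pathway were counted by the same limma call. Over all genes tested, 16.2% were called lower and 16.1% higher. With log2 Xist as a covariate, 2.68% of all genes were called lower. Of 29 tested genes of surfactant phospholipid synthesis, 13 were lower, 3 were higher and 13 were not called, with a median log2 fold change of -0.21. With log2 Xist as a covariate, 3 were lower and 0 higher. The phosphatidate phosphatases Lpin1, Lpin3 and Lpin2, which make diacylglycerol, fell by 1.35, 1.05 and 0.89 on the log2 scale (limma adjusted p = 0.000168, 0.000195 and 0.000108), and Gpam, which starts glycerolipid synthesis, fell by 0.67 (adjusted p = 0.00513). Pcyt1a, the rate-limiting enzyme of phosphatidylcholine synthesis, fell by 0.34 and Chpt1, which completes it, fell by 0.41 (limma adjusted p = 0.00962 and 0.00198). The fatty acid synthase Fasn fell by 0.46 (limma adjusted p = 0.0282). The 3 higher genes were Lpcat4, Fabp5 and Ptpmt1, at 0.30, 0.30 and 0.26 on the log2 scale. This count of higher genes rested on single lungs, being 0 without sham lung 1 or sham lung 5 and 1 without IncPBF lung 1 or sham lung 4.

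Of 33 genes of lamellar body trafficking and biogenesis, 10 were lower and 2 were higher, with a median of -0.15. That is 30.3% lower and 36.4% in either direction, against 16.2% and 32.3% of all genes tested. The Xist covariate left 3 lower and 1 higher. Rab3d, a small GTPase of secretory granules, went from 19.1 ± 1.35 FPKM (SD, n = 5) in the sham group to 11.6 ± 0.792 FPKM (SD, n = 5) in the IncPBF group, a log2 fold change of -0.71 (limma adjusted p = 3.32e-05). Rab27a, which acts in granule docking, fell by 0.53 (limma adjusted p = 0.000129), the ubiquitin ligase Nedd4l by 0.65 (adjusted p = 3.32e-05) and the lysosomal membrane protein Scarb2 by 0.64 (adjusted p = 0.000988). The adaptor subunit Ap3s1 and the tetraspanin Cd63 were the higher genes, at 0.42 and 0.34 on the log2 scale.

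Of 15 tested genes of surfactant secretion and clearance, 8 were lower and 1 was higher, with a median of -0.25, and with the Xist covariate these counts were 1 and 0. Prdx6, whose phospholipase activity takes part in surfactant turnover, was at 59.7 ± 4.43 FPKM (SD, n = 5) in the IncPBF group and 136 ± 14.8 FPKM (SD, n = 5) in the sham group, a log2 fold change of -1.19 (limma adjusted p = 6.87e-06). The lipid exporter Abca1 fell by 1.35 (limma adjusted p = 0.000465) and Adgrf5, a receptor of AT2 and endothelial cells that limits the surfactant pool, by 0.72 (adjusted p = 0.000532). P2ry2, the purinergic receptor that stimulates secretion, was the higher gene, at 0.45 on the log2 scale (limma adjusted p = 0.00849).

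Of 17 transcription factors known to act on surfactant genes, 6 were lower and 2 were higher, with a median of -0.15, and with the Xist covariate these counts were 1 and 0. Nkx2-1 was at 62.9 ± 5.99 FPKM (SD, n = 5) in the IncPBF group and 62.8 ± 3.31 FPKM (SD, n = 5) in the sham group (limma adjusted p = 0.994). Cebpd fell by 1.05 (limma adjusted p = 4.99e-05), Tfcp2l1 by 0.47 (adjusted p = 0.0141) and Cebpa by 0.37 (adjusted p = 0.00306), and Elf5 rose by 0.41 (adjusted p = 0.0107). Foxa2 fell by 0.19 (limma adjusted p = 0.0133).

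**Figure D5:**
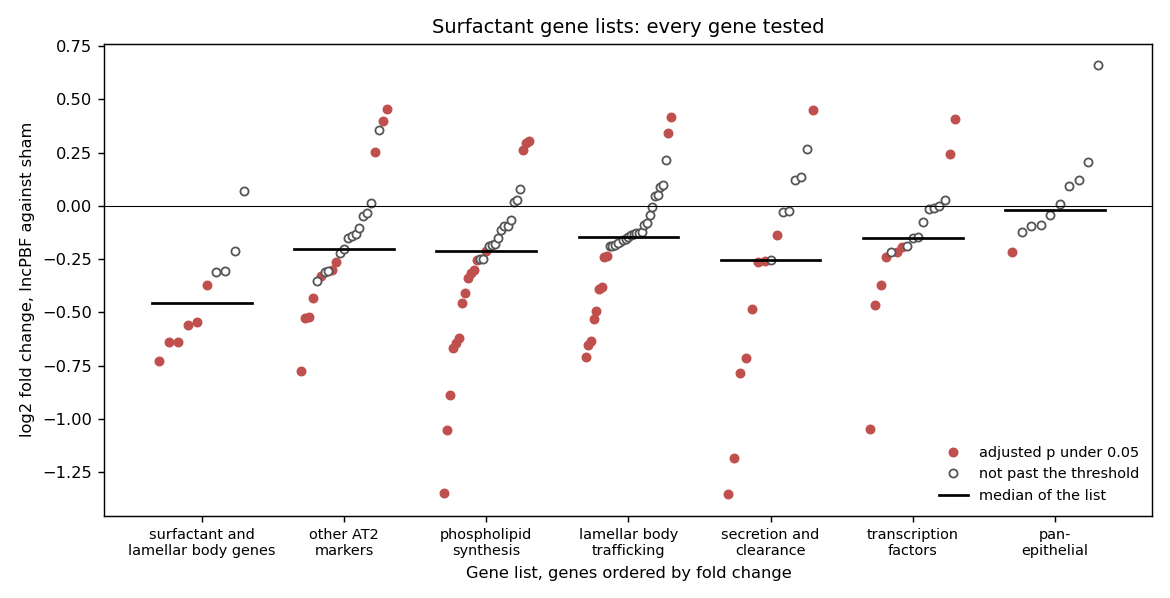
Log2 fold changes (IncPBF minus sham, log2(FPKM + 0.1) scale) of the tested genes in each list, 1 point a gene, filled for a limma adjusted p under 0.05, with the list median. The medians lie at -0.46 for the 10 members, at -0.25 to -0.15 for the other surfactant lists and at -0.02 for pan-epithelial markers. AT1 and endothelial markers, which are not drawn, had medians of -0.41 and -0.37.

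Of 23 other AT2 marker genes tested, 7 were lower and 3 were higher, with a median of -0.20, and none was called in either direction with the Xist covariate. Lyz2, a lysozyme of AT2 cells and macrophages, was at 1389 ± 192 FPKM (SD, n = 5) in the IncPBF group and 2366 ± 211 FPKM (SD, n = 5) in the sham group, a log2 fold change of -0.78 (limma adjusted p = 0.000817). Mlc1 fell by 0.53 and Atp8a1, a lipid flippase, by 0.52 (limma adjusted p = 0.00472 and 0.00210). Tinag rose by 0.45 (limma adjusted p = 0.00303), and Egfl6 and Muc1 were also higher, at 0.40 and 0.25 on the log2 scale. Etv5, a transcription factor that maintains AT2 cells, did not pass the test (log2 fold change 0.02, limma adjusted p = 0.933).

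Markers of other cells were counted in the same way, beside the same shares of all genes. Of 10 pan-epithelial markers, 1 was called lower (Krt19, log2 fold change -0.22). Their summed level was 232 to 262 FPKM per IncPBF lung against 229 to 270.5 FPKM per sham lung, with Epcam, Cdh1 and Krt8 present in every lung. The lowest sham sum was that of sham lung 5, which was low in airway genes, and the other sham lungs had at least 254 FPKM. Of 12 AT1 markers, 10 were lower, with a median log2 fold change of -0.41. Their summed level was 1689 to 1813 FPKM against 2011 to 2744 FPKM. Of 10 alveolar macrophage markers, given because macrophages also express Lyz2 and Abca1, 3 were lower (Ear1, Cidec and Car4), and the sums of 118 to 469 FPKM and 144 to 441 FPKM overlapped. Of 10 endothelial markers, given because endothelium also expresses Adgrf5, 7 were lower, with a median log2 fold change of -0.37. Their sums were 1223 to 1322 FPKM against 1347 to 1665 FPKM. A lower median was thus not particular to the surfactant lists. The part of these cells in the members' values was not tested.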

How the data were processed

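RNA of lung tissue from 5 IncPBF and 5 sham pups was sequenced. The deposited table holds FPKM per gene with gene lengths and positions, made by the authors and used as deposited. The IncPBF columns are named otherwise than the sample titles and were matched to the group, not to single samples. The submitters' processing notes name Bowtie 0.12.2 and the builds hg38, GRCm38 and mm10, without saying what each was used for, and the program that counted fragments is not given in the sources used here. Positions matched those of GENCODE M21 (GRCm38) for 98.3% of shared genes.

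FPKM multiplied by gene length, and divided by a constant fitted for each lung, gave whole fragments (within 0.1) for 100.0% of values above 0. The same constant gave the library size of each lung. The library size behind the authors' FPKM was 1.02 to 1.07 times the fragments on genes for IncPBF and 0.958 to 1.03 times for sham, so FPKM includes a scaling beyond depth. The voom fit used these same library sizes and so shares that scaling. Labels and methods differ on the RNA extraction reagent.

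Genes with a mean of at least 0.5 FPKM (15388) entered limma 3.58.1 (R 4.3.3, trend in the variance) as log2(FPKM + 0.1), with Benjamini-Hochberg adjustment over all of them and a threshold of 0.05. Ratios of members were tested with two-sided exact permutation tests. The code was tested on simulated data. Nothing in the labels says whether lungs of a group came from separate litters, so p-values rest on the spread between these lungs. In limma, the spread of each gene is moderated by that of the other genes. No library was a repeat of another, the closest pair (IncPBF lungs 2 and 5) differing by a chi-square of 6.77 per gene.

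The members and gene lists were chosen with earlier results of these data known. The text names all members, the 4 genes with the largest called change in each pathway list, genes whose role is described, up to 4 genes a marker list, and the 3 genes most like each member. The value of 1 gene that this rule names is not reported here. Alternatives were other pseudocounts, filters and scalings, a replicate block, a fit without trend, voom on whole fragments, an exact test, Xist as a covariate and each lung left out. Coordinates are those of the table (GRCm38), and the promoters are from RefSeq (GRCm38.p6). Sequences of proteins were not used here. Figures were drawn with matplotlib 3.10.9 in Python 3.11.15.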

Additional observations from a re-analysis of the deposited data

Results flagged for a closer look

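Across 38 sets of 5 lungs (FPKM of the 10 members and the 9 ratios to Sftpc, in each group), 1 had a lung far from the others. The ratio of Ctsh to Sftpc was 0.828% in sham lung 1 and 0.624 to 0.656% in the other 4 sham lungs, so that the gap to the nearest lung was 0.844 of the whole range, above the critical value of 0.71 for 5 lungs. Chance gives such a gap in about 1 in 20 sets. All IncPBF lungs, at 0.483 to 0.536%, were below all sham lungs, which leaving out sham lung 1 could not change. Without that lung, the log2 difference between the groups was -0.35.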

How the results depend on the processing

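The number of members called, 6, was 6 or 7 under every other pseudocount, filter, scaling and variance setting and with voom on whole fragments, which added Lamp3. It fell to 3 (Sftpa1, Sftpb and Ctsh) with an exact permutation test on unlogged FPKM adjusted over all genes, in which only genes whose groups did not overlap could pass, and to 1 (Ctsh) with log2 Xist as a covariate. Over all genes, 4970 were called, against 3563 with the exact test, 741 with the Xist covariate and 4213 of 31400 without a filter on low values. Leaving out each lung in turn gave 6 to 7 members and 4 to 6 ratios to Sftpc with a p under 0.05, where all lungs gave 6. The 4 ratios without overlap pass whichever lung is left out, since their groups stay apart. A pseudocount of 1, medians in place of means, and Sftpb as the reference each gave 5 ratios. The fold change of Sftpc turned from -0.21 to 0.12 on the log2 scale under quantile normalization, passing the threshold in neither. That method gives every lung the same value at a given rank, and Sftpc ranked first or second in each lung. Its value there thus follows its rank and not its level in FPKM. With lungs rescaled to an equal total FPKM, 2921 genes were higher and 1960 lower, in place of 2480 and 2490, the median log2 fold change of all genes was 0.047 in place of 0.014, and 6 members were still called. With the number of the lung as a replicate block, 6 members and 4872 genes were called. Deviations of lungs with the same number correlated at r of -0.0675 to 0.0854 for the 5 numbers, with 2 of 5 highest for their own. The lungs were not treated as pairs in the main fit. This check cannot show whether lungs with the same number share a litter or a processing day. In the pathway lists, 78 of 78 counts of lower genes and 67 of 78 counts of higher genes stayed within 1.5 times under the alternatives without Xist. With the Xist covariate, the lower genes went from 7 to 0 among other AT2 markers, from 13 to 3 in phospholipid synthesis, from 10 to 3 in trafficking, from 8 to 1 in secretion and clearance and from 6 to 1 among transcription factors, and from 8 to 7 among glucocorticoid-induced genes. At least 2589 fragments stood behind every value of a member, and the precision rests on 5 lungs a group.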

Other observations

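Of 12 tested glucocorticoid-induced genes, 8 were lower and none was called higher, with a median log2 fold change of -1.51. Over all genes tested, 16.2% were called lower. With log2 Xist as a covariate, 7 were lower. Sgk1, Dusp1 and Mt1 did not pass the test, at log2 fold changes of 0.33, 0.21 and 0.12, and of these only Sgk1 had an unadjusted p under 0.05 (limma adjusted p = 0.0516). Zbtb16 was at 0.783 ± 0.370 FPKM (SD, n = 5) in the IncPBF group and 32.4 ± 6.54 FPKM (SD, n = 5) in the sham group, without overlap (limma adjusted p = 1.15e-06). Fkbp5, an immunophilin that binds the glucocorticoid receptor complex, was at 1.67 ± 0.189 FPKM (SD, n = 5) and 11.1 ± 2.56 FPKM (SD, n = 5), a log2 fold change of -2.63 (limma adjusted p = 2.73e-06). Serpina3n and Hif3a fell by 3.69 and 3.36 on the log2 scale (limma adjusted p = 4.44e-07 and 7.24e-06). This list was chosen with earlier results of these data known, and the relation of these genes to the surfactant members was not tested.

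Among the mesenchymal markers, 2 of 10 were lower and 3 were higher, beside 16.2% and 16.1% of all genes tested. Inmt and Pdgfra fell by 2.99 and 1.36 on the log2 scale (limma adjusted p = 1.76e-05 and 9.01e-05), and Acta2, the smooth muscle actin, rose by 1.57 (adjusted p = 0.000783). Of 7 tested club cell markers, 1 was lower, Aldh1a1, which makes retinoic acid and fell by 1.52 (limma adjusted p = 0.000369). The summed level of the list was 5194 to 10974 FPKM per IncPBF lung against 286 to 12983 FPKM per sham lung. The lowest sham sum was that of sham lung 5, and the other sham lungs had at least 5601 FPKM. Of 9 interstitial macrophage and monocyte markers, 2 were lower and 2 were higher, the largest being Plac8, at 1.01 on the log2 scale (limma adjusted p = 0.00360). Of 8 ciliated cell markers, none passed in limma, and 1 (Tppp3) had an unadjusted p under 0.05.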
